A study of Mus musculus with 12 samples.

Results

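The comparison described here is the loss of EED in anterior neural progenitors (AntNPC), read as the 4 RNA-seq libraries labelled EED-/- AntNPC against the 4 labelled WT AntNPC, of 12 libraries in the series. Its members are all genes of at least 1 FPKM (fragments per kilobase of transcript, scaled to the mapped fragments of the library) in at least 2 of those 8 libraries, which were 12829 of the 21253 genes in the table. The study made AntNPC from mouse embryonic stem cells (mESC) and placed the comparison in work on PRC2 and poised enhancers, regulatory elements of developmental genes that are not yet active. WT cells were the E14 line of mESC, and the EED-/- cells were an mESC line made for earlier work that lacks EED in every cell. Both lines were kept in serum and LIF on gelatin and then differentiated over 5 days in N2B27, which holds no serum. The growth factor bFGF (10 ng/ml) was present until day 3, and Xav939 (5 uM), an inhibitor of WNT signalling, from day 2. The 4 remaining libraries are the undifferentiated mESC of the same lines, 2 WT and 2 EED-/-. Each genotype is thus 1 line, so other differences between the lines and the genotype cannot be told apart. The labels do not say whether replicates came from separate differentiations, and p-values then measure the spread between these libraries, which may be technical.

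EED is the subunit of Polycomb repressive complex 2 (PRC2) that binds methylated lysine 27 of histone H3 and stimulates the catalytic subunits EZH2 and EZH1. PRC2 keeps genes of other lineages silent, among them the Hox clusters and the regulators of mesoderm, endoderm and germ cells, and loss of EED removes the methylation mark. Anterior neural progenitors are the precursors of forebrain and midbrain and are marked by OTX2, SOX1 and PAX6. In bulk samples such as these, more cells of a type and more RNA per cell cannot be told apart.

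Replicate 1 of both genotypes stood apart from the other 3. Over the 12829 genes, replicates 2 to 4 of a genotype correlated with each other at 0.995 to 0.996, and replicate 1 with its own genotype at 0.949 to 0.957. Values with replicates 2 to 4 alone are therefore given beside the main results that they move most. The FPKM summed to 455577 to 542958 per library, and the read depth of single libraries is unknown. Of genes above 10 FPKM in the other 3 libraries of a group, 7 were listed at exactly 0 in 1 library, which included Gapdh in WT replicate 1 and Rpl22 in EED-/- replicate 1, so a 0 can be a failed estimate. Checked against the labelled cell type, 8 of 8 anterior neural markers were at a mean of 1 FPKM or more in both genotypes, while 6 markers of undifferentiated stem cells summed to 18.9 to 24.4 FPKM in WT AntNPC against a median of 4810 in WT mESC.

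Loss of EED went with many more large rises than large falls. Of the 12829 genes, 1309 rose at least 2-fold (an adjusted p under 0.05 in limma and a log2 fold change of at least 1), which is 10.2% of those tested, and 418 fell at least 2-fold, which is 3.26%. Without a fold threshold 3884 rose (30.3%) and 2792 fell (21.8%), so that 52.0% of all tested genes passed in 1 direction or the other. All fold changes are differences of log2(FPKM + 1), which understates the change of low genes, and are EED-/- minus WT. The median over all tested genes was 0.03. The genes that rose at least 2-fold were mostly low in WT: their median was 1.07 FPKM in WT and 6.16 FPKM in EED-/-, and 48.0% of them were under 1 FPKM in WT against 9.54% of all tested genes. Those that fell at least 2-fold went from a median of 13.5 to 3.29 FPKM. A gene under 1 FPKM in every WT library passed the filter only through the EED-/- libraries. The risen share of a list that holds such genes is therefore not evidence of a general rise. In reverse, a gene under 1 FPKM in every EED-/- library passed only through the WT libraries, which limits fallen shares alike. The split between rises and falls moved with the scaling: rises were 75.8% of the 2-fold calls as deposited and 57.7% after quantile normalization, and 58.2% against 44.3% of all calls. Under each scaling tried, rises of at least 2-fold outnumbered falls of at least 2-fold. Groups did not overlap, with every EED-/- library higher, for 28.8% of all tested genes, and with every EED-/- library lower for 20.2%.

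**Figure D1:**
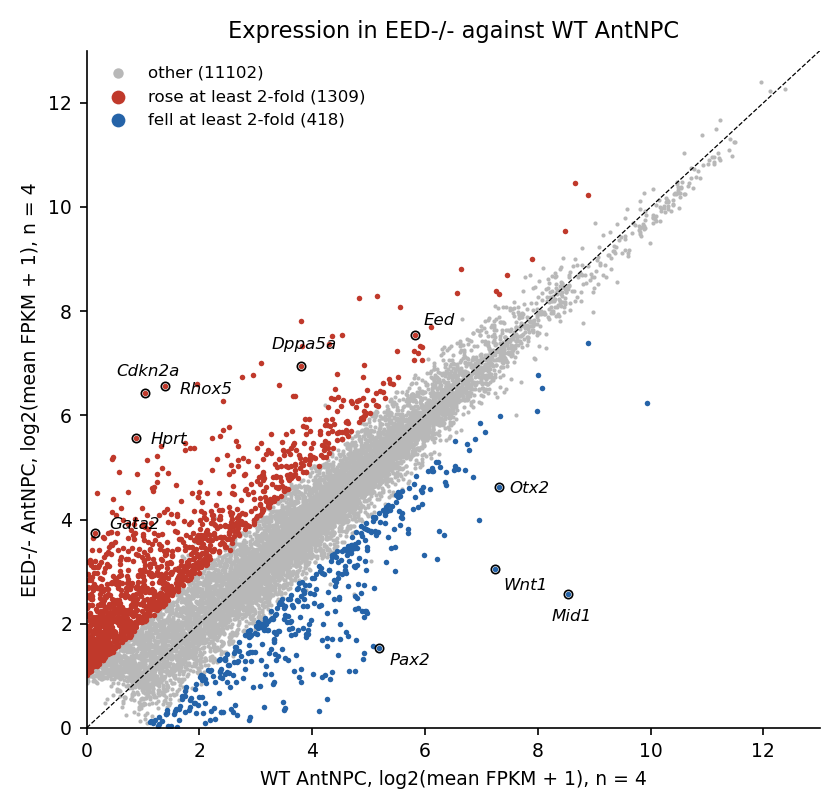
Mean FPKM of each of the 12829 tested genes in WT AntNPC (x axis) and EED-/- AntNPC (y axis), both as log2(mean FPKM + 1) with n = 4 libraries. Red points are the 1309 genes that rose at least 2-fold, blue the 418 that fell at least 2-fold, grey the rest; the dashed line marks equal levels, and the red points crowd at the low end of the WT axis while the blue points spread over higher WT levels.

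The targeted gene was not lower in the FPKM columns. Eed (chromosome 7, 89954654 to 89980983, GRCm38, minus strand) was at 42.0, 54.7, 63.4 and 61.7 FPKM in WT replicates 1 to 4 and at 182, 171, 202 and 186 FPKM in the EED-/- libraries. All 4 libraries labelled EED-/- were above all 4 labelled WT, with a log2 fold change of 1.74 ± 0.13 (SE; adjusted p = 7.35e-06). The authors' deposited table gives Eed a mean of 3720 reads in WT and 2500 in EED-/- AntNPC, the opposite direction. The log2 difference between the FPKM ratio and that read ratio was 2.32 for Eed, and only 5 of 11302 genes compared had a larger one. The allele is not described in the sources used here, so RNA levels leave the loss of the protein unchecked, and every direction below rests on the labels.

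Among the other PRC2 subunits, Ezh1, the alternative methyltransferase, rose from 9.87, 8.04, 7.89 and 7.69 FPKM to 12.7, 16.2, 12.9 and 15.7 FPKM, a log2 fold change of 0.71 ± 0.11 (adjusted p = 0.000659; 0.244 with all 12 libraries in 1 fit). Rbbp4, which binds histones and also serves in other chromatin complexes, fell from 119 to 129 FPKM over the WT libraries to 79.5 to 84.9 FPKM (-0.60 ± 0.05, adjusted p = 2.45e-05), whereas its paralogue Rbbp7 rose by 0.53 ± 0.07. Ezh2, the main methyltransferase, was at 110, 162, 155 and 164 FPKM in WT and 175, 180, 195 and 184 FPKM in EED-/-, with a log2 difference of 0.33 (adjusted p = 0.054). Suz12, the scaffold of the complex, differed by 0.28 (adjusted p = 0.102). Both passed upward with the replicate number as a block (adjusted p = 0.0266 for Ezh2 and 0.0388 for Suz12) with replicates 2 to 4 alone (0.00314 and 0.000412) and without WT replicate 1 (0.0233 and 0.001), Ezh2 also passed without WT replicate 4 (0.0491), and Ezh2 reversed to -0.22 after centring each chromosome. Of 12 PRC2 genes tested 4 rose and 3 fell, near the 30.3% and 21.8% of all tested genes; 7 rose and 2 fell with the replicate block, and 8 rose and 3 fell with replicates 2 to 4 alone. The largest change after Eed was in Phf19, an accessory subunit that guides the complex to chromatin, from 1.82 to 2.52 FPKM to 6.46 to 8.26 FPKM (1.4 ± 0.11). Of 20 subunits of PRC1, the Polycomb complex that ubiquitinates histone H2A, 5 rose at least 2-fold (25% against 10.2% of all tested genes) and 0 fell at least 2-fold (against 3.26%). The 5 were Cbx7, a reader of methylated lysine 27 (2.11 ± 0.21), Pcgf5 (1.69 ± 0.12), Pcgf1 (1.26 ± 0.08), the BCL6 corepressor Bcor (1.08 ± 0.11) and Bmi1 (1.02 ± 0.12; adjusted p = 0.11 with all 12 libraries). Cbx7 was at 8.10 to 14 FPKM in WT and at 68.7 FPKM in EED-/- replicate 1 against 41.3 to 43.0 in the other 3 EED-/- libraries. Smaller falls were found in the catalytic subunits Ring1 and Rnf2 and in Cbx2, Phc2 and Kdm2b.

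The promoter windows of the gene with the largest fall and of the 2 genes with the largest rises are shown with that of Wnt8b, a forebrain WNT ligand that fell, because CpG-rich promoters are the usual sites of PRC2 recruitment in mouse stem cells. Each window runs from 250 bases before to 50 bases after the RefSeq start (GRCm38.p6), 5′ to 3′ on the gene's strand, and capitals mark every CG, a C followed by a G, which reads the same on both strands. The windows are chrX:169684949-169685248 (plus strand) for Mid1, chr4:89294570-89294869 (minus strand) for Cdkn2a, chrX:37754358-37754657 (plus strand) for Rhox5 and chr19:44493222-44493521 (plus strand) for Wnt8b. The Rhox5 window lies 50235 bases from the start of the gene in GENCODE and belongs to another RefSeq start.
Mid1: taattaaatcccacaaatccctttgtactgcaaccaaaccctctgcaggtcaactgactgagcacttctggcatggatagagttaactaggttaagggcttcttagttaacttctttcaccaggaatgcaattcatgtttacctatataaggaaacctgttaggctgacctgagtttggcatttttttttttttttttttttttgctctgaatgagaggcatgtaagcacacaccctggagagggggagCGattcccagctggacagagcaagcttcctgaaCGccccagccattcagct
Cdkn2a: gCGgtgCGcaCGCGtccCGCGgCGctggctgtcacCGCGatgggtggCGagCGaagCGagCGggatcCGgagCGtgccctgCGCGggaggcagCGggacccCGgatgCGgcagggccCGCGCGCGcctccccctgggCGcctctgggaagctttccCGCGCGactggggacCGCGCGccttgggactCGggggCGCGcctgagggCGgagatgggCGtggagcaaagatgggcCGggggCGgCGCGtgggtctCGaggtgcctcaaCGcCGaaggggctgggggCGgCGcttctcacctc
Rhox5: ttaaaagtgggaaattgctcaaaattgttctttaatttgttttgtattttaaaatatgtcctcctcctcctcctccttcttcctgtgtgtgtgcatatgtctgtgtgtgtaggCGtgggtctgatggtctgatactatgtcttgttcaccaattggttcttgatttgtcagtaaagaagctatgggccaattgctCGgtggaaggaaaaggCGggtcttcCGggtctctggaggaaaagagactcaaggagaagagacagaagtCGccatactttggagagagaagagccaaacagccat
Wnt8b: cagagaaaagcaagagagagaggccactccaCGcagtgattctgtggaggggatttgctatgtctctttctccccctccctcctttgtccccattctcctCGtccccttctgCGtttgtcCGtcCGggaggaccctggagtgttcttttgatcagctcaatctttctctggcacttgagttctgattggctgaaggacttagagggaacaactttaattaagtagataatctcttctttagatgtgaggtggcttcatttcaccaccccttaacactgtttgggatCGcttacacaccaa
The Cdkn2a window holds 45 CG, that of Wnt8b 6, that of Rhox5 5 and that of Mid1 2. Over the 32851 windows of the same length in the RefSeq table, 94.6% hold at least 1 CG, the median is 7 and the middle 50% run from 3 to 20. Among these 4 genes the CG-rich window belongs to a gene that rose and the poorest to the gene that fell most. Rhox5, which rose, holds fewer CG than Wnt8b, which fell, so the 4 windows set no pattern. No comparison over all genes was made, because only 74.2% of tested genes had a window.

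The largest rises were in genes of cell cycle arrest, the germ line and epithelia. Cdkn2a (chromosome 4, 89274471 to 89294653, minus strand), which encodes the cell cycle inhibitor p16 and the p53 activator p19Arf, was at 1.67, 0.734, 0.897 and 0.914 FPKM in WT and at 60.9, 93.7, 90.3 and 97.7 FPKM in EED-/-. That is a log2 fold change of 5.4 ± 0.18 (adjusted p = 1.8e-07), and no library of one genotype came near the other. Rhox5 (chromosome X, 37804842 to 37808876), a homeobox gene of the germ line and placenta, rose from 1.31 to 1.83 FPKM to 54.3, 102, 119 and 99.8 FPKM (5.13 ± 0.22). Xlr3a, an X-linked gene expressed in lymphoid and germ cells, rose by 4.72 ± 0.11, and 7 of 7 tested genes with the Xlr prefix rose at least 2-fold (a family chosen after its values were seen). Members near 0 in WT, such as Xlr3a, passed the filter only through the EED-/- libraries. Their count is thus not evidence of a general rise. The tight-junction gene Cldn6 rose from 2.14 to 4.23 FPKM to 86.6 to 102 FPKM (4.67 ± 0.15), the adhesion gene Epcam by 4.08 ± 0.24 and the keratin Krt19 by 4.07 ± 0.19. Plagl1, an imprinted zinc finger gene, was under 0.2 FPKM in each WT library and at 15.4, 22.7, 24.8 and 24.4 FPKM in EED-/- (4.31 ± 0.15). The 12 largest rises also held Dppa3 (4.30 ± 0.22), a maternal and germ-cell factor, Sfmbt2 (4.10 ± 0.09), an imprinted Polycomb-group gene of the placenta, Capg (4.04 ± 0.19), an actin-capping protein, and Hprt. Hprt, the purine salvage enzyme, went from 0.655 to 1.27 FPKM to 37.9 to 60.8 FPKM (4.67 ± 0.16), and in mESC from 0.469 and 0.556 to 82.8 and 76.4 FPKM; E14 sublines deficient in this enzyme are in wide use, and line and genotype cannot be told apart for this gene.

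The 12 largest falls included 4 genes of the midbrain and forebrain lists, Wnt1, Pax2, En1 and Wnt8b. Mid1 (chromosome X, 169685199 to 170005736), a microtubule-associated ubiquitin ligase whose gene crosses the boundary of the region shared by X and Y, was at 273, 427, 373 and 411 FPKM in WT and at 5.69, 4.41, 4.69 and 4.91 FPKM in EED-/-. The log2 fold change was -5.96 ± 0.14 (adjusted p = 4.89e-08), and it was as large in mESC (-6.83), where line and genotype can again not be told apart. Wnt1 (chromosome 15, 98789857 to 98793837), a signal of the midbrain-hindbrain boundary, was at 34.6, 208, 180 and 184 FPKM in WT and at 8.81, 6.48, 7.03 and 6.69 FPKM in EED-/-. This was a difference of -3.93 ± 0.51 in log2 (adjusted p = 0.000229), or -4.54 without WT replicate 1. Pax2, a paired-box gene of the same boundary, fell from 27.3, 41.3, 36.9 and 36.1 FPKM to 4.02, 0.97, 1.14 and 1.42 FPKM (-3.75 ± 0.28), and the homeobox gene En1 by 3.45 on the log2 scale, from 16.4, 42.5, 34.9 and 37.1 FPKM to 2.93, 1.74, 1.59 and 1.58 FPKM. Sox21, a SOX factor of neural progenitors (-3.52 ± 0.29), Rfx4, a factor of the dorsal midline and cilia (-3.41 ± 0.50), and Foxd4, a forkhead gene of early neural ectoderm (-3.37 ± 0.50), were also among the 12. In Rfx4 the WT libraries held 5.69, 34.8, 30.4 and 33.3 FPKM, and with replicates 2 to 4 alone the log2 fold change was -4.10. In Foxd4 WT replicate 1 was instead the high one, at 42.4 FPKM against 6.92 to 8.60. The 12 also held 2 more WNT ligands, Wnt8b (-3.16 ± 0.15) and Wnt7b (-3.11 ± 0.28), the retinoic acid-degrading enzyme Cyp26a1 (-3.39 ± 0.34), the hedgehog release factor Scube2 (-3.14 ± 0.21) and the insulin receptor substrate Irs4 (-3.61 ± 0.22).

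Midbrain and forebrain regulators fell at least 2-fold in shares above that of all tested genes, although members of each list also rose. Pax5 passed the filter only through the WT libraries and Cnpy1 only through the EED-/- libraries. Neither share of the midbrain list is therefore evidence of a general change. Of 17 tested genes of the midbrain and its boundary with the hindbrain, 9 fell at least 2-fold and 2 rose at least 2-fold, which is 52.9% and 11.8% against 3.26% and 10.2% of all tested genes, and the median log2 fold change was -1.07. With replicates 2 to 4 alone 11 fell at least 2-fold. Otx2 (chromosome 14, 48657677 to 48673819), the homeobox gene that specifies forebrain and midbrain, was at 208, 141, 134 and 144 FPKM in WT and at 37.6, 19.5, 19.7 and 17.6 FPKM in EED-/-. Replicate 1 was the highest of both groups, and the groups did not overlap (-2.73 ± 0.24, adjusted p = 2.16e-05). Lmx1b, a homeobox gene of midbrain dopaminergic precursors, went from 25.3, 32.1, 30.3 and 31.6 FPKM to 8.36, 6.88, 6.77 and 6.46 FPKM (-1.92), and Pax5 from 2.52 to 2.96 FPKM to 0.192 to 0.865 FPKM (-1.47). The 2 that rose at least 2-fold were Cnpy1, an FGF pathway component of the boundary, from 0.176 to 0.555 FPKM to 8.19, 3.79, 3.84 and 3.57 FPKM (2.08 ± 0.22), and Tcf7l1, a repressor of WNT targets (1.29 ± 0.13). Fgf8, the organiser ligand of the boundary, did not pass: it was at 0.342, 5.27, 3.79 and 4.53 FPKM in WT and 10.7, 5.34, 7.15 and 6.23 FPKM in EED-/-, a difference of 1.07 (adjusted p = 0.079).

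In the forebrain and eye field list, 12 of 26 tested genes (46.2%) fell at least 2-fold and 4 (15.4%) rose at least 2-fold, with a median of -0.86 and the same 12 as a count in replicates 2 to 4 alone. The shares over all tested genes were 3.26% and 10.2%. Shisa2, an inhibitor of WNT and FGF receptors in the head, fell most after Wnt8b, from 176, 110, 101 and 104 FPKM to 14.3, 14.9, 15.2 and 15.8 FPKM (-2.91 ± 0.16). Fezf1, a forebrain zinc finger repressor, was at 20.2 to 23.2 FPKM in WT and at 1.76 to 3.08 FPKM in EED-/- (-2.80), with no overlap. Hesx1, a repressor of the anterior neural ridge, fell from 77.6, 12, 15.8 and 15.4 FPKM to 4.80, 3.75, 3.42 and 2.5 FPKM (-2.34 ± 0.51), and by 1.75 without WT replicate 1. Those that rose were telencephalic and optic genes that were near 0 in WT. They passed the filter only through the EED-/- libraries, and Wnt8b only through the WT libraries. Neither share of this list is therefore evidence of a general change. Vax2, a homeobox gene of the ventral retina, went from 0.310 to 0.417 FPKM to 7.11, 9.96, 11.2 and 13.2 FPKM (3.04 ± 0.16). Vax1 and Emx1, of the ventral forebrain and the cortex, rose by 1.34 and 1.03 and stayed under 2 FPKM. Pax6 fell by 0.70 ± 0.23 with overlapping groups (16.2 to 36.7 against 10.8 to 16.3 FPKM; adjusted p = 0.029), and did not pass with the replicate block (adjusted p = 0.0551), without WT replicate 3 (0.0546), without EED-/- replicate 1 (0.0669) or without EED-/- replicate 3 (0.0657). Six3 was at 25.7 FPKM in WT replicate 1 and 5.09 to 5.31 FPKM in the other WT libraries against 12.8 to 14.1 FPKM in EED-/-, so its difference of 0.69 did not pass (adjusted p = 0.22) and was 1.22 without WT replicate 1 (adjusted p = 2.1e-06).

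General neural progenitor genes moved both ways: 7 of 25 (28.0%) fell at least 2-fold, 5 (20%) rose at least 2-fold, and the median was -0.41. Zic4 passed the filter only through the EED-/- libraries, which limits the risen share. The shares over all tested genes were 3.26% and 10.2%. The SOXB1 factors that maintain progenitors were unequal. Sox3 went from 29.4 to 32.5 FPKM to 13, 8.65, 8.16 and 8.78 FPKM (-1.58) and Sox2 from 99.2 to 116 FPKM to 61.1 to 69.3 FPKM (-0.70 ± 0.07). Sox1 was at 16.3, 15.6, 13.4 and 14.4 FPKM against 15.2, 11.6, 10.7 and 11.4 FPKM, with overlapping groups and a difference of -0.28 that did not pass (adjusted p = 0.0664), but did with the replicate block (adjusted p = 0.0222), with replicates 2 to 4 alone (0.00153) and without EED-/- replicate 1 (0.00383). Zinc finger genes of the Zic family, which act in the dorsal neural plate, split by member: Zic2 fell from 45.9 to 59.0 FPKM to 10.4 to 20.4 FPKM (-1.94 ± 0.20), while Zic1 rose from 0.166, 1.26, 1.61 and 1.81 FPKM to 13.4 to 15.1 FPKM (2.87 ± 0.25) and Zic4 by 1.14. Vim, the intermediate filament of progenitors and mesenchyme, rose from 27.3, 60.4, 66.7 and 65.2 FPKM to 91.3, 145, 143 and 150 FPKM (1.31 ± 0.29), and Hmga2, a chromatin protein of young stem cells, by 1.42. Nes, the progenitor intermediate filament, was at 14.9 to 23.4 FPKM and 19.3 to 23.2 FPKM, a difference of 0.07 that turned to -0.11 with replicates 2 to 4 alone and to -0.43 after centring each chromosome.

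Of 18 Notch pathway and proneural genes, 5 fell at least 2-fold (27.8% against 3.26% of all tested genes) and 0 rose at least 2-fold (against 10.2%). Without a fold threshold 4 of the 18 rose and 8 fell, where 30.3% and 21.8% of all tested genes did. The 4 were the ligand Jag2 and Hes6, Hey1 and Hey2. The ligand Dll1 was at 23.1 to 24.5 FPKM in every WT library and at 4.96 to 6.20 FPKM in every EED-/- library (-1.91 ± 0.07, adjusted p = 2.96e-07; 0.077 with all 12 libraries). The ligand Jag1 fell by 1.29 and the effectors Hes5 and Hes3 by 1.71 and 1.33 on the log2 scale, while the effector Hes1, at 21.1 to 27.6 and 24.7 to 34.5 FPKM, differed by 0.24 (adjusted p = 0.114). Neurog2, a proneural factor, was at 9.68 FPKM in WT replicate 1 and 1.56 to 2.17 FPKM in the other WT libraries against 0.162 to 0.371 FPKM (-1.6 ± 0.41, adjusted p = 0.00996). It passed the filter only through the WT libraries, so the fallen share of the Notch list is not evidence of a general fall. Genes of postmitotic neurons went 4 up and 4 down at least 2-fold of 16 tested, 25% each way. Of these Isl1, Gad2 and Lhx1 passed the filter only through the EED-/- libraries, so the risen share is not evidence of a general rise. Stmn2, a microtubule regulator of growing axons, rose from 19.6 to 24.2 FPKM to 52.2, 78.0, 81.0 and 76.3 FPKM (1.66 ± 0.14) and the motor neuron gene Isl1 by 2.15, whereas the dendritic protein Map2 fell from 17.4 to 29.8 FPKM to 6.92 to 8.57 FPKM (-1.65 ± 0.17). The interneuron enzyme Gad2 and the LIM homeobox gene Lhx1 rose by 1.14 and 1.00, and Stmn3, the splicing factor Rbfox3 and the neurofilament Ina fell by 1.22, 1.17 and 1.12 on the log2 scale. Lhx1 did not pass after quantile normalization (adjusted p = 0.11), nor Ina with all 12 libraries (0.131). Axon guidance genes were likewise divided, with 8 up and 8 down at least 2-fold of 31, 25.8% each way. The same limit holds for the risen share, since Sema3e passed the filter only through the EED-/- libraries. The repellent Sema3a went from 21.1 to 28.0 FPKM to 2.06 to 2.82 FPKM (-2.86 ± 0.11) and the ephrin receptor Ephb1 by -2.76, while the netrin receptor Unc5b went from 4.61 to 6.08 FPKM to 32.1, 44.3, 49.3 and 53.3 FPKM (2.86 ± 0.15) and Sema3e by 1.97.

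**Figure D2:**
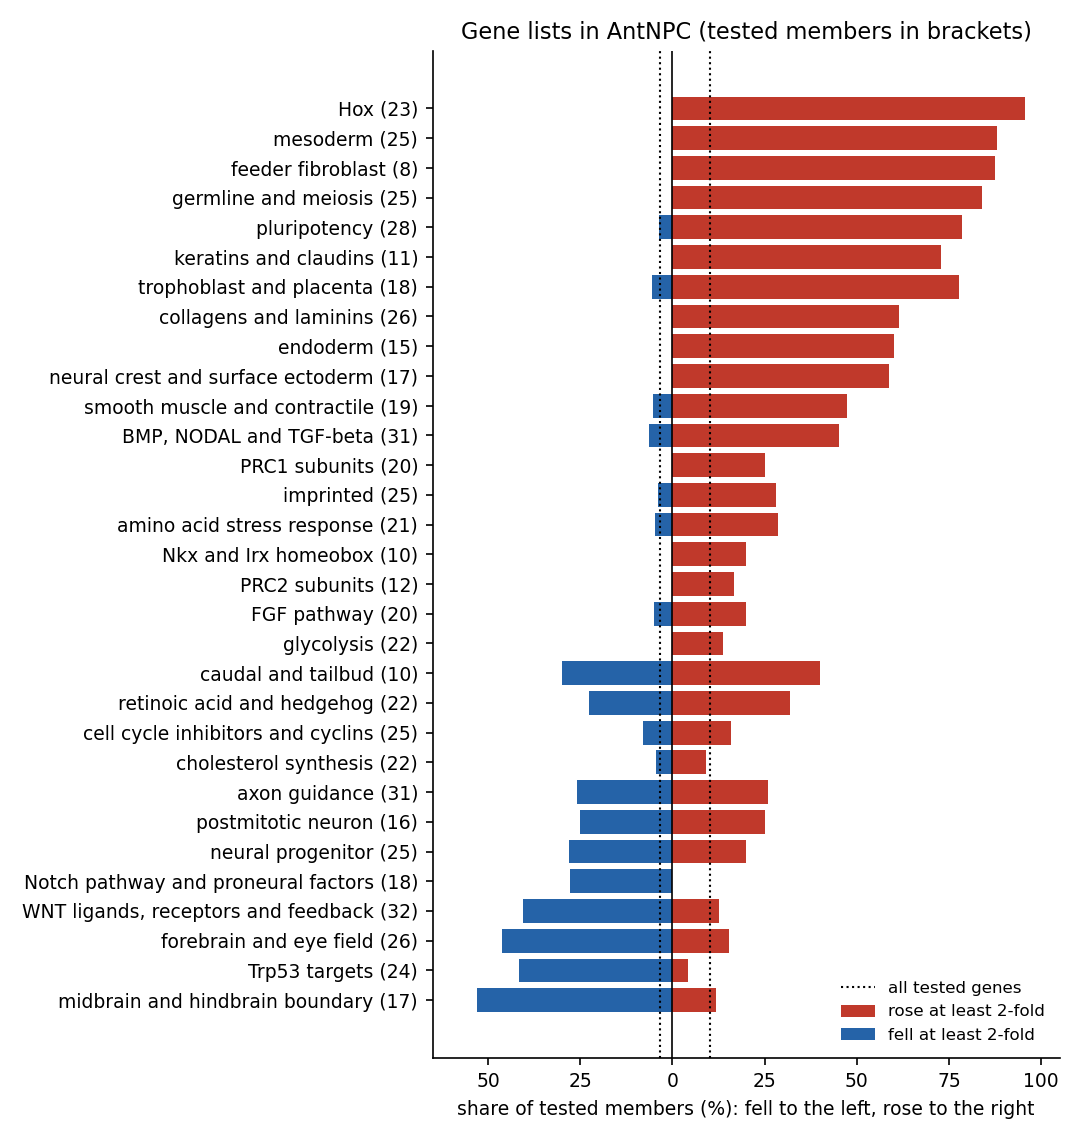
Share of the tested members of each of the 31 gene lists that rose at least 2-fold (red, to the right) or fell at least 2-fold (blue, to the left), in percent, with the number of tested members in brackets. Dotted lines mark the shares over all tested genes, 10.2% risen and 3.26% fallen; Hox, mesoderm, feeder fibroblast and germline lists reach furthest to the right and midbrain, forebrain and Trp53 target lists furthest to the left.

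Hox genes give position to hindbrain and trunk, are silent in anterior tissue and were near 0 in WT. The deposited genes include 38 of them, and 23 passed the filter on low values; because they passed through the EED-/- libraries, their share is not evidence of a general rise. Of those 23, 22 rose at least 2-fold, namely 8 in the Hoxa, 5 in the Hoxb, 6 in the Hoxc and 3 in the Hoxd cluster, with a median of 1.94. Hoxb7 (chromosome 11, 96286623 to 96290162) was at 0.0853, 0.0379, 0.0177 and 0.0197 FPKM in WT and at 5.43, 9.27, 9.21 and 9.57 FPKM in EED-/- (3.14 ± 0.16, adjusted p = 1.14e-06). Hoxd13, the most posterior member of its cluster, rose from at most 0.124 FPKM to 4.22 to 6.05 FPKM (2.49 ± 0.11). The 15 that were not tested stayed low also in EED-/-: Hoxb1 was listed at 0 in each WT library and at 0.471 to 0.822 FPKM in EED-/-. The levels reached were modest, since none of the Hox genes named here exceeded 10 FPKM. Other caudal genes did not move as one. Of 10 tested, 4 rose at least 2-fold, T (the primitive streak factor Brachyury, 2.33 ± 0.15), Fgf4 (1.88 ± 0.27) and the HOX cofactors Meis1 (1.64 ± 0.28) and Meis2 (1.39 ± 0.19), and 3 fell at least 2-fold, Cyp26a1, Wnt3a and Wnt5b. These shares of 40.0% and 30.0% stand against 10.2% and 3.26% of all tested genes. T and Fgf4 passed the filter only through the EED-/- libraries and Wnt3a only through the WT libraries, so neither share is evidence of a general change. Cdx2, the caudal homeobox gene, was not tested and stayed at or under 0.454 FPKM in every AntNPC library.

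Regulators of mesoderm, endoderm, placenta and neural crest were also near 0 in WT, and the same filter applies to their counts. Of 25 tested mesoderm genes (13 of 38 in the table were not tested) 22 rose at least 2-fold and 0 fell, with a median of 1.75; after quantile normalization 14 rose at least 2-fold. Gata2, a factor of blood and trophoblast, was at 0.129, 0.134, 0.0633 and 0.0961 FPKM in WT and at 12.9, 11.9, 13.2 and 11.6 FPKM in EED-/- (3.60 ± 0.08, adjusted p = 4.89e-08). All 4 tested members of each of the Gata and Tbx families rose at least 2-fold (families chosen after their values were seen). Of the 5 mesoderm markers T and Foxc1 rose, while Mesp1, Tbx6 and Meox1 were not tested and stayed at or under 0.885 FPKM in every AntNPC library. In the endoderm list 9 of 15 tested genes rose at least 2-fold and 0 fell. Gata4 went from 0.245 to 0.517 FPKM to 8.51 to 12.1 FPKM (3.09 ± 0.12) and the forkhead gene Foxa2 from at most 0.148 FPKM to 2.42 to 3.41 FPKM (1.74 ± 0.10). Afp, a yolk sac protein, was listed at 0, 0, 0.0104 and 0.0431 FPKM in WT and at 19.9, 3.41, 2.19 and 1.35 FPKM in EED-/- (2.34 ± 0.59, adjusted p = 0.00884), and its log2 fold change was 1.66 without EED-/- replicate 1.

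Of 18 tested genes of trophoblast and placenta, 14 rose at least 2-fold and 1 fell, with a median of 2.23. The placental homeobox gene Esx1 went from 0.221 to 0.738 FPKM to 18.8 to 21.4 FPKM (3.94 ± 0.12), and Hand1, a basic helix-loop-helix factor of giant cells and heart, from at most 0.121 FPKM to 4.90, 12.9, 14.3 and 14.1 FPKM (3.44 ± 0.28). The exception was Fgfr2, the FGF receptor of trophoblast stem cells and also of neural tissue, which fell from 127, 87.4, 82.1 and 84.4 FPKM to 27.2, 32.8, 28.6 and 33.7 FPKM (-1.59 ± 0.14). Lineage-restricted trophoblast genes were not tested: Elf5 was at or under 0.226 FPKM and Tpbpa under 0.1 FPKM in every AntNPC library. In the neural crest and surface ectoderm list 10 of 17 tested genes rose at least 2-fold and 0 fell (2 with replicates 2 to 4 alone). Epcam, at 10.4 FPKM in WT replicate 1 and 3.98 to 4.37 FPKM in the other WT libraries, reached 103 to 110 FPKM in EED-/-, and Cdh1, the epithelial cadherin, went from 14.5, 4.10, 3.83 and 4.59 FPKM to 105 to 112 FPKM (4.01 ± 0.33). Tfap2a, a neural crest and epidermis factor, rose from 0.261 to 0.872 FPKM to 9.05 to 13.6 FPKM (2.92 ± 0.16), whereas the crest factor Sox10 stayed at or under 1.07 FPKM. Among Nkx and Irx homeobox genes the heart factor Nkx2-5 and Nkx2-3 rose by 2.29 and 1.59. Of the 10 tested 5 fell, each by less than 2-fold, where 21.8% of all tested genes fell by any amount. Only 2 fell with the replicate block and 2 with all 12 libraries, so this count rests on the fit.

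Many epithelial, matrix and contractile genes rose. Of 23 keratins and claudins 11 passed the filter on low values, some only through the EED-/- libraries, so their share is not evidence of a general rise; 8 rose at least 2-fold and 0 fell (1 with replicates 2 to 4 alone), with a median of 2.98. The simple-epithelium keratins Krt8 and Krt18 (chosen after their values were seen) went from 12.4 to 14.8 FPKM to 121, 155, 177 and 181 FPKM (3.49 ± 0.13) and from 20.6 to 23.8 FPKM to 124, 200, 208 and 211 FPKM (2.98 ± 0.16). Of 26 collagens, laminins and related genes 16 (61.5%) rose at least 2-fold and 0 fell at least 2-fold, against 10.2% and 3.26% of all tested genes. The same limit holds, since members near 0 in WT, such as Col1a1, passed the filter only through the EED-/- libraries. Col5a2 went from 0.0937 to 0.770 FPKM to 6.11, 11.6, 10.3 and 12 FPKM (2.80 ± 0.23) and Col1a1, a fibrillar collagen, from at most 0.422 FPKM to 3.18, 9.83, 11.2 and 12.2 FPKM (2.78 ± 0.33), with replicate 1 the lowest of the EED-/- libraries in both. Of 19 contractile genes 9 rose at least 2-fold (13 with replicates 2 to 4 alone) and 1 fell at least 2-fold. These shares of 47.4% and 5.26% stand against 10.2% and 3.26% of all tested genes. Smooth muscle actin Acta2 went from 1.04 to 1.70 FPKM to 12.4, 26.0, 29.8 and 33.0 FPKM (3.40 ± 0.27) and Tagln by 3.39, while Mylk, the myosin light chain kinase, fell from 3.66, 13.4, 12.2 and 13 FPKM to 1.32 to 2.02 FPKM (-2.06 ± 0.34).

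Genes of pluripotent and germ cells were higher in EED-/- AntNPC. Of 28 tested pluripotency genes 22 rose at least 2-fold (18 with replicates 2 to 4 alone) and 1, Otx2, fell at least 2-fold. These shares of 78.6% and 3.57% stand against 10.2% and 3.26% of all tested genes, and the median was 1.6. Members near 0 in WT, such as Dppa3, passed the filter only through the EED-/- libraries. The risen share is thus not evidence of a general rise. Nanog, a core factor, was at 8.90, 3.70, 3.22 and 3.90 FPKM in WT and at 37.7, 32, 31.4 and 27.4 FPKM in EED-/- (2.56 ± 0.25, adjusted p = 4.19e-05), below its 114 and 267 FPKM in WT mESC. Pou5f1 (OCT4) went from 47.3, 13.6, 13.3 and 15.0 FPKM to 102, 66.7, 76.4 and 65.4 FPKM (1.95 ± 0.38), against 648 and 1250 FPKM in WT mESC. Dnmt3l, a DNA methylation cofactor of stem and germ cells, went from 1.30 to 1.43 FPKM to 36.8, 23.2, 29.2 and 24.9 FPKM (3.61 ± 0.13). Of 36 germline and meiosis genes 25 passed the filter on low values, with the same limit on reading their share; 21 of these rose at least 2-fold (18 with replicates 2 to 4 alone) and 0 fell (1 with the replicate block). Several of these were highest in EED-/- replicate 1: Ddx4, the germ cell helicase, was at 10.4, 4.12, 4.34 and 3.71 FPKM and Mael, a piRNA pathway gene, at 6.44, 2.13, 1.87 and 1.68 FPKM, against at most 1.20 and 0.440 FPKM in WT. The meiotic chromosome protein Sycp3 did not pass, at 11.2, 3.29, 3.20 and 4.05 FPKM in WT and 9.09, 1.80, 2.86 and 1.84 FPKM in EED-/-. Of 25 tested imprinted genes 7 (28.0%) rose at least 2-fold and 1 (4.0%) fell at least 2-fold, against 10.2% and 3.26% of all tested genes. Plagl1 passed the filter only through the EED-/- libraries, so this risen share has the same limit. The growth factor Igf2 went from 34.0, 25.5, 24.5 and 25.5 FPKM to 218, 314, 325 and 358 FPKM (3.42 ± 0.16), and Nnat, a membrane protein of the developing brain, fell from 25.4 to 49.1 FPKM to 8.91 to 11.6 FPKM (-1.91 ± 0.19).

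Signalling genes changed by pathway and by role. In the WNT list, 13 of 32 tested genes (40.6%) fell at least 2-fold and 4 (12.5%) rose at least 2-fold, with a median of -0.53. All tested genes did so in 3.26% and 10.2% of cases. Wnt3a and Wnt8b passed the filter only through the WT libraries, and Wnt11 and Dkk1 only through the EED-/- libraries. Neither share is therefore evidence of a general change. Of the ligands, Wnt1, Wnt3a, Wnt5b, Wnt7b, Wnt8b and Wnt9a fell at least 2-fold and Wnt11 rose at least 2-fold (1.05 ± 0.09). Wnt3a was at 0.627, 14.3, 12.7 and 13.7 FPKM in WT and at 0.212 to 0.388 FPKM in EED-/- (-2.73 ± 0.66, adjusted p = 0.00744), and its log2 fold change was -3.52 without WT replicate 1. Of the receptors Fzd1, Fzd3, Fzd5 and Fzd9 fell at least 2-fold and Fzd4 rose by 1.03, and of the feedback genes Axin2 fell from 27.6, 51.6, 47.0 and 47.4 FPKM to 9.09, 5.96, 6.03 and 7.13 FPKM (-2.44). The secreted inhibitor Dkk1 rose from 0.204 to 0.565 FPKM to 1.97 to 3.47 FPKM (1.51 ± 0.16), and Dkk3 by 1.04 (adjusted p = 0.0898 with all 12 libraries). Cells of all 8 libraries were grown with the inhibitor Xav939.

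In the FGF pathway the ligand Fgf4 and the feedback and effector genes Etv5, Etv4 and Dusp6 were the 4 of 20 that rose at least 2-fold, and Fgfr2 was the 1 that fell at least 2-fold. Etv5, an ETS factor induced by FGF signalling, was at 0.762, 2.14, 2.65 and 3.18 FPKM in WT and at 36.5, 11.4, 16.0 and 14.4 FPKM in EED-/- (2.63 ± 0.37). Replicate 1 was the lowest WT library and the highest EED-/- library, and with replicates 2 to 4 alone the log2 fold change was 2.03. Replicate 1 was also the highest EED-/- library of Etv4 and Dusp6, whose log2 fold changes were 2.23 and 1.68, the latter 1.02 with replicates 2 to 4 alone. In the retinoic acid and hedgehog list 7 of 22 (31.8%) rose at least 2-fold and 5 (22.7%) fell at least 2-fold, against the same background. Here Cyp26b1 and Gli1 passed the filter only through the EED-/- libraries, so the risen share has the same limit. Retinoid handling genes moved in opposite directions within a class: of the degrading enzymes Cyp26a1 fell from 48.1, 15.6, 16.7 and 15.9 FPKM to 0.851 to 1.65 FPKM while Cyp26b1 rose from at most 0.100 FPKM to 1.96, 9.55, 8.69 and 10.7 FPKM (2.86 ± 0.39). Of the binding proteins Crabp2 fell from 299, 477, 566 and 558 FPKM to 106, 196, 182 and 180 FPKM (-1.50 ± 0.25) while Crabp1 rose from 25.3 to 54.6 FPKM to 119, 357, 278 and 322 FPKM (2.47 ± 0.37). The uptake receptor Stra6 fell by 1.81 and, on the hedgehog side, the repressor Gli3 by 1.26 and the coreceptor Gas1 by 1.13 on the log2 scale, while the target Gli1 rose by 1.05. In BMP, NODAL and TGF-beta signalling 14 of 31 (45.2%) rose at least 2-fold (9 after quantile normalization) and 2 (6.45%) fell at least 2-fold. All tested genes did so in 10.2% and 3.26% of cases. Members near 0 in WT passed the filter only through the EED-/- libraries, so the risen share is not evidence of a general rise. The rises covered both branches: the ligand Gdf3 went from 0.341 to 0.530 FPKM to 15.5 to 16.6 FPKM (3.58 ± 0.08), Tgfb2 from at most 0.300 FPKM to 4.33, 13.1, 13.7 and 15.9 FPKM (3.25 ± 0.33) and Lefty1, a NODAL inhibitor and target, from at most 0.227 FPKM to 16.3, 4.82, 9.85 and 7.63 FPKM (3.08). The roof plate ligand Gdf7 and Gdf10 fell by 2.02 and 1.26 on the log2 scale, and both passed the filter only through the WT libraries.

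Cell cycle inhibitors of the INK4 class rose and targets of the tumour suppressor p53 fell. Next to Cdkn2a, its neighbour Cdkn2b rose from 0.162 to 0.547 FPKM to 5.34, 9.37, 10.6 and 12.2 FPKM (2.95 ± 0.22) and Cdkn2c by 1.64 ± 0.21; their target kinase Cdk6 rose by 1.89 ± 0.14. Cdkn1a (p21), an inhibitor induced by p53, fell from 49.6, 20.2, 18.9 and 19.7 FPKM to 6.59, 3.18, 3.04 and 2.99 FPKM (-2.44 ± 0.33). Replicate 1 was the highest library of both groups. Trp53 itself went from 106, 113, 110 and 109 FPKM to 47.4, 34.8, 38.3 and 36.6 FPKM (-1.46 ± 0.09, adjusted p = 3.16e-06). Of 24 tested genes of the p53 list 10 fell at least 2-fold, or 41.7% against 3.26% of all tested genes, and 1 rose at least 2-fold, with a median of -0.87; in mESC the median was -1.02. Eda2r, a death receptor, fell from 28.0, 11.2, 10.5 and 11 FPKM to 0.899 to 1.13 FPKM (-2.87 ± 0.28) and Ccng1, a cyclin-like regulator, from 123, 62.5, 67.7 and 66.3 FPKM to 11.6 to 12.6 FPKM (-2.58 ± 0.19). The 1 that rose was the apoptosis gene Pmaip1, from 3 to 5.18 FPKM to 46.6, 25.1, 25.1 and 22.7 FPKM (2.69 ± 0.23), while the negative regulator Mdm2 and the effector Bax fell by 0.67 and 0.94 on the log2 scale (adjusted p = 0.133 and 0.0583 with all 12 libraries).

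Of 22 glycolysis genes 3 rose at least 2-fold, of 22 cholesterol synthesis genes 2 rose and 1 fell at least 2-fold, and of 21 amino acid stress genes 6 rose and 1 fell at least 2-fold (9 rose with replicates 2 to 4 alone). The risen shares of 13.6%, 9.09% and 28.6% stand against 10.2% of all tested genes. The hexokinase Hk2 went from 8.43 to 12.9 FPKM to 57.9, 29.9, 36.1 and 30.4 FPKM (1.77 ± 0.21). Mthfd2, a mitochondrial folate enzyme, went from 20.3, 7.67, 9.64 and 9.06 FPKM to 74.8 to 91.4 FPKM (2.79 ± 0.25), the largest rise among the stress genes. Fdps and Pmvk, of the mevalonate pathway, rose by 1.07 and 1.15 and both lie on chromosome 3, which was higher as a whole; Pmvk did not pass after chromosome centring (0.65, adjusted p = 0.0613). Of 77 genes for cytosolic ribosomal proteins 1 fell, against 24 with replicates 2 to 4 alone and 29 with the replicate block, so this count rests on the fit. Of 327 genes with the Zfp prefix 110 fell and 38 rose, where 21.8% and 30.3% of all tested genes did, and the falls numbered 34 with all 12 libraries, 168 with replicates 2 to 4 alone and 184 after quantile normalization.

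**Figure D3:**
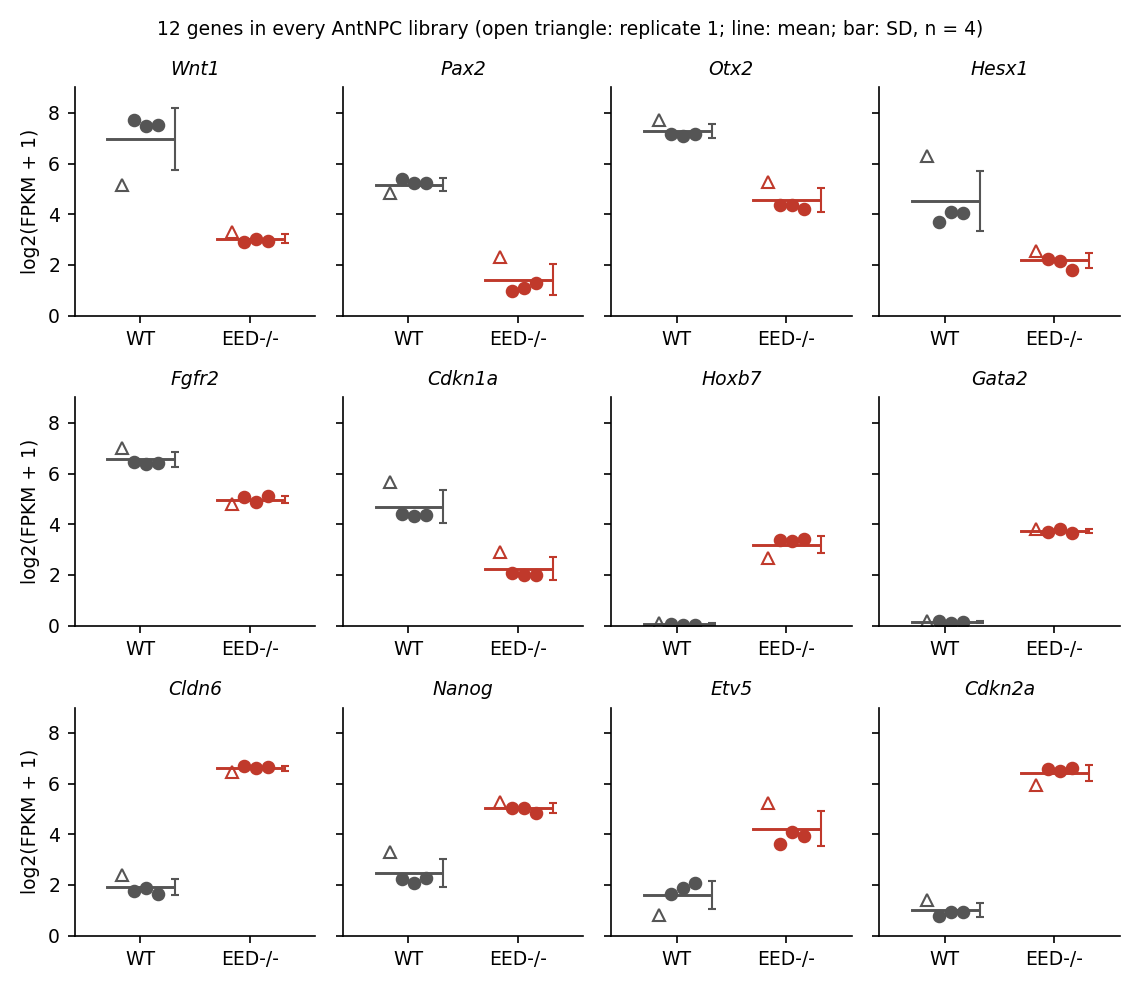
Level of 12 genes in every AntNPC library as log2(FPKM + 1), WT in dark grey and EED-/- in red, with replicate 1 as an open triangle, replicates 2 to 4 as filled circles, the mean as a line and the SD (n = 4) as a bar. The groups are apart in each of the 12 genes, and replicate 1 lies away from the other 3 for example in Wnt1, Hesx1 and Cdkn1a of WT and in Pax2, Otx2, Cdkn1a and Hoxb7 of EED-/-.

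Marker sets of other cell types were low but present in EED-/- AntNPC. The summed FPKM of 5 endoderm markers was 0.518 to 0.866 in WT and 18.4 to 33.8 in EED-/-, that of 5 mesoderm markers 0.658 to 1.46 and 9.30 to 11.4, and that of 5 trophoblast markers 0.313 to 0.395 and 10.3 to 21.8. Undifferentiated stem cell markers rose in 6 of 6 cases, from a sum of 18.9 to 24.4 FPKM to one of 171 to 209 FPKM, against a median of 3870 in EED-/- mESC. The sum of 4 neural crest markers was 1.19 to 3.06 FPKM in WT and 17.2 to 19.6 FPKM in EED-/-, with Foxd3 at 0.165 to 1.57 FPKM, and that of 6 fibroblast markers 12.8 to 16.1 and 26.8 to 86.0 FPKM. In the fibroblast set Lum stayed at or under 0.186 FPKM, and Thy1 (1.08, adjusted p = 0.0393) passed only with overlapping groups and not with the replicate block (adjusted p = 0.0511). Thy1 also did not pass without any 1 of replicates 2 to 4 of either genotype (adjusted p = 0.072 to 0.102). The sum of anterior neural markers went the other way, from 321 to 505 FPKM to 154 to 184 FPKM, with 4 of 8 falling and none rising in the main fit. Its highest members in WT were Otx2 (means of 157 and 23.6 FPKM) and Sox2 (108 and 65.9 FPKM). With replicates 2 to 4 alone Six3 and Lhx2 rose, by 1.24 and 0.18 (adjusted p = 2.71e-07 and 0.0243). Lhx2 also passed without WT replicate 1 (0.035) and after chromosome centring (0.0319), and Nes did not pass in the main fit. The part of cells of other types in the group results above was not tested. Of 4 tested Y-linked genes 2 fell, Uty by 0.32 (adjusted p = 0.0422) and Erdr1 by 1.54 on the log2 scale. Uty did not pass without WT replicate 1 or 2 or without EED-/- replicate 2, 3 or 4 (adjusted p = 0.0686 to 0.115), and Eif2s3y was at 22.5 to 24.8 FPKM in WT and 20 to 23.3 FPKM in EED-/-, a difference that did not pass (adjusted p = 0.151).

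Over all 2-fold calls, the rises of AntNPC were in part already present in undifferentiated cells, and the falls mostly were not. Among genes of at least 5 FPKM in WT mESC this contrast did not hold. The EED-/- effect in mESC rests on 2 libraries a group, and the difference between the effects was tested as an interaction over all 12 libraries and 13678 genes, of which 15.3% passed. Over all genes tested in AntNPC the median log2 difference was 0.28 in mESC and 0.03 in AntNPC. Of the genes that rose at least 2-fold in AntNPC, 86.3% were also higher in EED-/- mESC, against 70.5% of all tested genes, with a median log2 difference of 0.94 there and 1.46 in AntNPC. The interaction passed for 361 of them (27.6%), in 301 cases with the larger effect in AntNPC. Of the genes that fell at least 2-fold 34.7% were lower in EED-/- mESC, against 29.5% of all tested genes, with a median of 0.11 there and -1.37 in AntNPC, and the interaction passed for 270 (64.6%). Of these 418 genes, 198 were under 1 FPKM in WT mESC. Among the 112 that had at least 5 FPKM in WT mESC the median was -0.64 in mESC and -1.26 in AntNPC, and the interaction passed for 25%. The risen genes with at least 5 FPKM in WT mESC numbered 594. Their median was 0.54 in mESC and 1.48 in AntNPC, and the interaction passed for 37.0%.

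Particular genes differed between the cell types in sign or in size. In WT mESC the 2 values of Fgfr2 were 1.29 and 1.11 FPKM, against 14.9 and 18.2 FPKM in EED-/- mESC, so it was higher there by 2.99 and fell in AntNPC (interaction -4.58 ± 0.27, adjusted p = 1.61e-05). Cyp26a1 and Wnt7b likewise were higher in EED-/- mESC, by 2.60 and 2.21, and fell in AntNPC (interactions -5.99 and -5.31). Igf2 rose in both, from 1.11 and 4.88 to 1450 and 653 FPKM in mESC, which was more than in AntNPC (interaction -4.70). En1 was under 1 FPKM in each mESC library and fell only from the level that WT cells reached in AntNPC (interaction -4.16). In the other direction the mESC values of Epcam were 96.8 and 85.4 FPKM in WT and 151 and 83.7 FPKM in EED-/-, a difference of 0.31, so that the rise belonged to AntNPC (interaction 3.78 ± 0.46, adjusted p = 0.000416). The interactions of Dppa5a, a stem cell gene, Cnpy1, Cdkn2a and Gli1 were 3.64, 3.45, 3.21 and 3.15. Dppa5a was at 7.53 to 16.7 FPKM in WT AntNPC and 115 to 133 FPKM in EED-/- AntNPC, and between 1020 and 6770 FPKM in the mESC libraries of both genotypes. Cdkn2a rose in mESC too, from 17.0 and 20.1 to 110 and 69.7 FPKM; in WT its AntNPC level was lower than in mESC, and in EED-/- the 2 ranges overlapped.

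**Figure D4:**
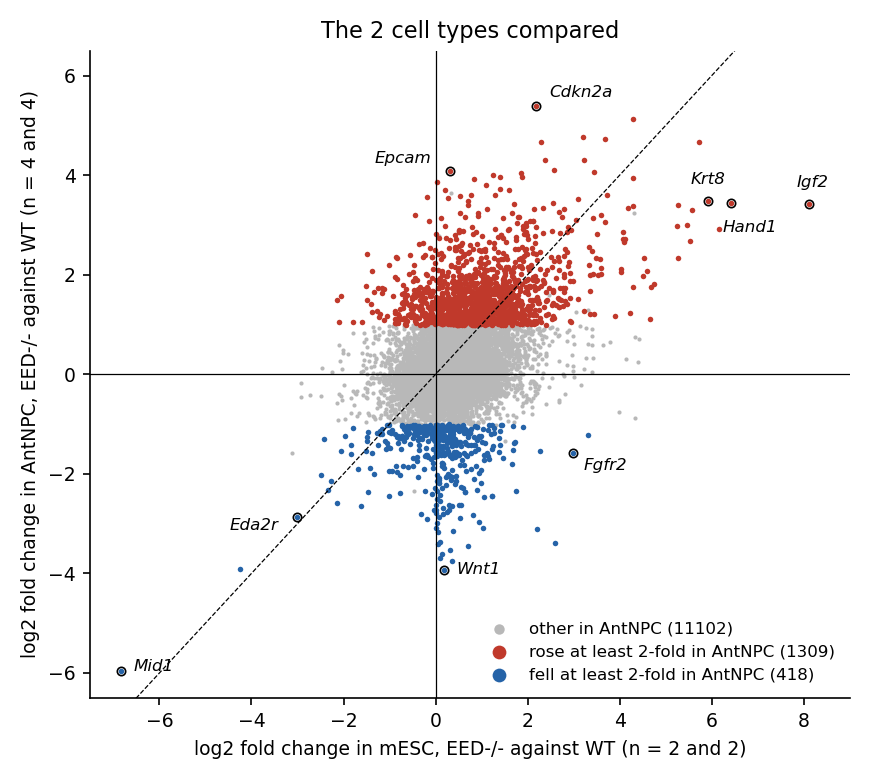
Log2 fold change of EED-/- against WT in mESC (x axis, n = 2 and 2) and in AntNPC (y axis, n = 4 and 4) for the 12829 genes tested in AntNPC, with those that rose at least 2-fold in AntNPC in red and those that fell at least 2-fold in blue; the dashed line marks equal effects. Red points lie mostly right of 0, with a median of 0.94 in mESC, and blue points gather around 0, with a median of 0.11, apart from genes such as Mid1 and Eda2r that are low in both.

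A share of the rises was tied to 3 chromosomes. Over tested genes with a mean above 5 FPKM, the median log2 fold change was 0.48 on chromosome 3, 0.55 on chromosome 6 and 0.39 on chromosome 8. It was -0.08 over the other autosomes. The same chromosomes stood out in mESC, at 0.62, 0.76 and 0.66, where the medians of the other autosomes were 0.11 to 0.27. They hold 14.7% of the tested genes but 28.3% of those that rose at least 2-fold (370 genes) and 7.18% of those that fell at least 2-fold; on the other autosomes 8.38% of genes rose at least 2-fold. After each chromosome's median was subtracted, 176 genes of these 3 chromosomes rose at least 2-fold, against the 370 before that step. Among genes named above, Gata2, Nanog, Dppa3, Gdf3, Vax2, Capg, Cyp26b1 and Mthfd2 on chromosome 6 and Cdh1 on chromosome 8 kept log2 fold changes above 2 after that step, and Hk2 on chromosome 6 and Stmn2 on chromosome 3 were at 1.23 and 1.16. Others were then under 2-fold: on chromosome 6 Pcgf1 went from 1.26 to 0.71, Tcf7l1 from 1.29 to 0.74 and Emx1 from 1.03 to 0.48, and on chromosome 3 Fdps from 1.07 to 0.57 and Pmvk from 1.15 to 0.65. Sox2, Crabp2 and Neurog2 on chromosome 3 and Wnt5b on chromosome 6 fell against the direction of theirs. What sets these chromosomes apart was not tested.

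**Figure D5:**
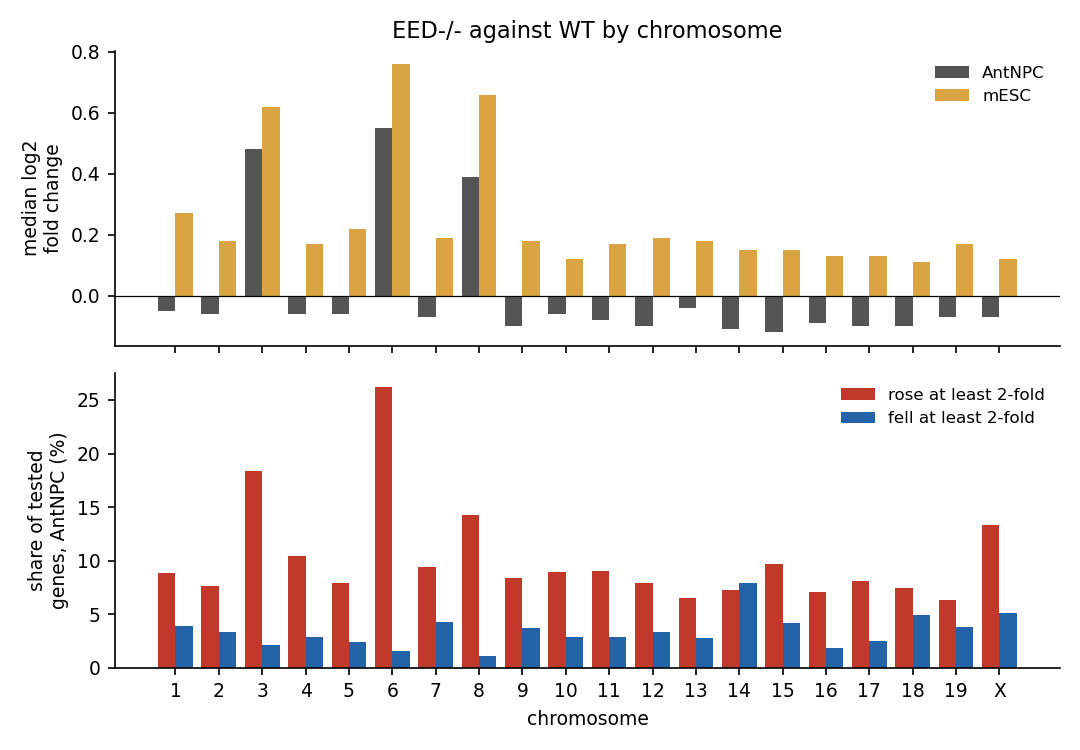
Top, median log2 fold change of EED-/- against WT by chromosome in AntNPC (grey, over the tested genes with a mean above 5 FPKM) and mESC (yellow). Bottom, share of the tested genes of each chromosome that rose (red) or fell (blue) at least 2-fold in AntNPC, in percent; chromosomes 3, 6 and 8 are the highest in the top panel, and in the bottom panel their shares of risen genes are 18.4%, 26.2% and 14.3%. The Y chromosome, with 4 tested genes, is not drawn.

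Complete switches, by the thresholds used here, were all in 1 direction, but the 0 on the other side rests on the cut-off. There were 24 genes under 0.5 FPKM in all 4 WT libraries and at 5 FPKM or more in all 4 EED-/- libraries, and 0 with the reverse pattern. These thresholds were chosen after the data were seen, and the 24 are a description. Foxd4 and Wnt8b, at 6.92 and 8.72 FPKM or more in WT, missed the reverse pattern only through EED-/- replicate 1. They were at 0.5 and 0.731 FPKM there and at most 0.192 and 0.2 FPKM in EED-/- replicates 2 to 4. Among the 24 were the Hox genes Hoxa7 and Hoxb7, the neighbouring distal-less genes Dlx5 and Dlx6 (means of 6.29 and 7.77 FPKM in EED-/-), 6 X-linked genes (Rhox6, Rhox9, Rhox13, Xlr3b, Xlr4a and Tex13) and Gata2. Apobec2, a muscle-expressed member of the cytidine deaminase family, went from 0.211 to 0.265 FPKM to 9.38 to 13.4 FPKM (3.32 ± 0.11). Barx1, a homeobox gene of jaw and stomach mesenchyme, went from 0.215 to 0.467 FPKM to 6.81 to 11.9 FPKM (3.06 ± 0.16). Genes that fell kept more of their transcript: 19.9% of the 418 were under 1 FPKM in EED-/-.

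Set beside the authors' deposited table, which gives a mean read count per group, the directions were the same for 1300 of the 1303 genes that rose at least 2-fold and had reads in both groups, and for 418 of 418 that fell at least 2-fold. The 3 that were opposite were Eed, Dbndd2 and Pcdhga9. Which replicates entered those means is not stated, and both are labelled with the same groups, so the comparison is not taken as an independent experiment.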

How the data were processed

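RNA of 8 AntNPC and 4 mESC libraries (TruSeq v2 kit, per the labels' protocols) was analysed from 1 deposited table. The authors deposited values per library that were taken as FPKM, since the header names no unit; TopHat2 and Cufflinks on GRCm38 (mm10), with FastQC and SAMtools, stand in the submitters' processing notes, which name DESeq2 for replicates 2 to 4 but not for replicate 1. The authors' mean read counts per group (a signal that is not whole, with its scaling not stated) and p-value come from the deposited table, and no source used here says which replicates entered them. FPKM keep no depth, so no counting interval is given. Gene positions are from GENCODE M21, which matched 21149 of 21253 genes, and promoter windows from RefSeq.

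Values were transformed as log2(FPKM + 1), filtered at 1 FPKM in at least 2 of the 8 libraries and compared by limma-trend in limma 3.58.1 under R 4.3.3 (two-sided, Benjamini-Hochberg over all tested genes, 6 residual and 2.76 prior degrees of freedom). "Rose" and "fell" mean an adjusted p under 0.05. The fit was tested on simulated data. The members, the 31 gene lists and the rules were chosen with earlier results of these data known. Genes named are the PRC2 core, the 12 largest rises and falls that do not overlap and reach a mean of 5 FPKM, the 2 largest of each list and direction at 2-fold (all where 5 or fewer), cell type markers and those whose promoters are shown; further genes with values, such as Krt8, Pou5f1, Trp53, Lmx1b, Fezf1, Sox3, Axin2, Lefty1, Ddx4, Mael, Sycp3, Fgf8 and Hoxd13, were chosen after their values were seen. Same-numbered libraries of the 2 genotypes deviated together, with correlations of 0.622, 0.353, 0.502 and 0.369, all above 0.1. Libraries of unlike number among replicates 2 to 4 did so as well, at 0.327 to 0.476, and only number 3 of these correlated best with its own number. The check therefore cannot show that the numbers pair libraries among replicates 2 to 4. A replicate block by number was fitted as an alternative. The other alternatives were pseudocount, filter, scaling, chromosome centring, all 12 libraries in 1 fit, replicates 2 to 4 alone and leaving out each library. A planned comparison of promoter CpG between risen and fallen genes is void, because 74.2% of tested genes had a window and 80% were required. A few genes that the naming rule selects are not reported here.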

Additional observations from a re-analysis of the deposited data

Results flagged for a closer look

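In 64 of the named genes 1 library of a group of 4 lay far from the other 3, by the gap to its nearest neighbour as a share of the group's range. There were 74 such groups of 286 examined, where chance gives about 1 in 20, and in 72 of them the library was replicate 1 (40 in WT and 32 in EED-/-).

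In FPKM, WT replicate 1 was low for Ezh2 at 110, Wnt1 at 34.6, Sox21 at 18.5, Rfx4 at 5.69, Wnt7b at 7.48, Bmi1 at 18.3, Vim at 27.3, Map2 at 17.4, Meis1 at 1.02, Wnt3a at 0.627, Mylk at 3.66 and Dusp6 at 1.73. It was also low for Crabp1 at 25.3, Gas1 at 16.7, Col1a2 at 4.47 and Gapdh at 0. The same library was high for Epcam at 10.4, Capg at 1.77, Irs4 at 37.8, Cyp26a1 at 48.1, Foxd4 at 42.4, Scube2 at 28.5, Shisa2 at 176, Neurog2 at 9.68, Ina at 16.3, Fgfr2 at 127, Cdh1 at 14.5 and Fzd4 at 2.22. Further high values were those of Otx2 at 208, Igf2 at 34, Cdkn1a at 49.6, Eda2r at 28, Ccng1 at 123, Fdps at 284, Sesn2 at 51, Six3 at 25.7, Hesx1 at 77.6, Thy1 at 11.2, Mdm2 at 45.3 and Pou5f1 at 47.3. EED-/- replicate 1 was low for Rbbp7 at 182, Cdkn2a at 60.9, Vim at 91.3, Stmn2 at 52.2, Stmn3 at 6.85, Hoxb7 at 5.43, Fzd4 at 2.84, Cyp26b1 at 1.96, Crabp2 at 106, Tgfb2 at 4.33, Pmvk at 54.9 and Fdps at 315. Other low values in it were Hand1 at 4.9, Col1a2 at 13.3, Postn at 0.655 and Krt18 at 124. That library was high for Irs4 at 2.72, Sox21 at 3.56, En1 at 2.93, Cbx7 at 68.7, Bcor at 23.4, Cnpy1 at 8.19, Zic2 at 20.4, Lhx1 at 2.89, Ina at 9.9, Mylk at 2.02, Otx2 at 37.6 and Cdkn1a at 6.59. It was further high for Pmaip1 at 46.6, Tfcp2l1 at 3.83, Foxd3 at 1.57 and Ptch1 at 11.1. WT replicate 3 was high for Tagln at 3.38 and Krt8 at 14.8.

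The EED-/- effect differed between AntNPC and mESC, tested as an interaction over 12 libraries, for 361 of the genes that rose and 270 of those that fell at least 2-fold in AntNPC, and for 79 of the genes named. The most negative differences (AntNPC effect minus mESC effect, log2) were -5.99 for Cyp26a1, -5.31 for Wnt7b, -4.70 for Igf2, -4.58 for Fgfr2 and -4.16 for En1. The most positive were 3.78 for Epcam, 3.64 for Dppa5a, 3.45 for Cnpy1, 3.21 for Cdkn2a and 3.15 for Gli1.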

How the results depend on the processing

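The direction of the 1727 genes at least 2-fold apart held under each alternative: 0 changed sign, and 1598 to 1727 passed in the same direction. With all 12 libraries in 1 fit 2326 genes rose and 1060 fell, against 3884 and 2792. After quantile normalization 863 rose and 632 fell at least 2-fold, against 1309 and 418. The replicate block, which treats libraries of the same number as paired although that pairing is not established, gave 4131 risen and 3058 fallen genes. Of the genes named it changed the calls of Ezh2, Suz12, Sox1, Pax6 and Thy1 only. Leaving out 1 library gave 3492 to 4359 risen and 2257 to 3190 fallen genes, and 1271 to 1364 and 407 to 436 at least 2-fold; among named genes Pax6, Thy1 and Uty lost their call without some library. Values that reversed were Ezh2 at -0.22 and Nes at -0.43 after chromosome centring, Nes at -0.11 and Gapdh at -0.12 with replicates 2 to 4 alone, and Elavl4 at -0.42 after quantile normalization. Leaving out 1 library, Nes ranged from -0.07 (without WT replicate 1) to 0.14, and Elavl4 from -0.04 (without EED-/- replicate 3) to 0.09, with -0.01 without WT replicate 1. The cause was not tested. Read depth is unknown, so no limit from counting can be set on genes near 0.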
